A study of Mus musculus with 9 samples.

Results

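The nuclear genes for subunits of the 5 oxidative phosphorylation complexes were followed through 9 mouse B-cell lymphomas. Members were taken by symbol, as genes whose names begin with Ndufa, Ndufb, Ndufc, Ndufs or Ndufv and a digit, Sdha to Sdhd, Uqcr, Cox4 to Cox8 or Atp5, pseudogenes left out, with a mean of at least 10 counts over the 9 tumors. The symbol pattern took 84 of the 41128 genes in the table, 79 of these had a mean of at least 10 counts, and all 79 were among the 14057 genes tested. They comprised 36 genes of complex I, 4 of complex II, 8 of complex III, 14 of complex IV and 17 of complex V. The 5 genes under the floor were Cox4i2, Cox7b2, Cox8b, Cox8c and Ndufa4l2, which code for alternative forms of other subunits and held 0 to 56 counts in total.

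The 3 Bcl6 tumors came from Smc3 wt/wt; Cγ1 wt/cre; IµBcl6 mice and the 6 Smc3/Bcl6 tumors from Smc3 wt/-; Cγ1 wt/cre; IµBcl6 mice, with 1 bulk RNA-seq library per tumor. IµBcl6 is a transgene that keeps the repressor Bcl6 on in B cells, and Cγ1-Cre acts once a B cell joins the germinal center reaction, where it removes 1 allele of the cohesin subunit Smc3 in the second group, so that both genotypes carried the transgene and the Cre. Tumors with replicate number 1 are labelled as mesenteric lymph node and the remaining 7 as lymph node, and no ages were given in the sources used here. Nothing in the labels says more about how separate the tumors were, so that p-values measure the spread between these libraries. In bulk tissue fewer cells of a type and less RNA per cell cannot be told apart.

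Oxidative phosphorylation takes place at the inner mitochondrial membrane. Complexes I and II pass electrons from NADH and succinate to ubiquinone, complex III passes them to cytochrome c, complex IV passes them to oxygen, and complex V, the ATP synthase, uses the proton gradient built by complexes I, III and IV. All complexes except II mix subunits from the nuclear genome with a few from the mitochondrial genome, and germinal center B cells, from which these lymphomas derive, are known to use oxidative phosphorylation while they divide.

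The promoters of these genes are known for the sites of a few shared regulators, NRF1, the ETS factor GABP and YY1, and the following stretches are shown because they hold a match to NRF1 or GABP letters, 1 gene per complex. RefSeq promoter windows on GRCm38.p6, from 250 bases before to 50 after each annotated start, were matched for 67 of the 79 genes. These genes had 73 windows, which were searched on both strands for 7 letters of each motif. GCATGCG (NRF1) was in 11 of the 73 windows, or 15.1%, against 3.58% of all 32851 windows. CCGGAAG (GABP) was in 16 windows, or 21.9%, against 8.86%, and AAGATGG (YY1) was in 13 windows, or 17.8%, against 6.34%. The last letters of CCGGAAG are the first of AAGATGG, so that matches to both can share bases. The stretches were chosen after the matches were seen, end before the start site and were cut to bases free of annotated exons. Each is written 5′ to 3′ on the strand of the gene with the match in capitals, CTTCCGG being the reverse complement of CCGGAAG. In Ndufa11 and Cox6a1 the NRF1 letters match on both strands, 1 base apart. A match is a description of the letters, not a site shown to be bound.
Ndufa11 (chr17:56717686-56717761, plus strand): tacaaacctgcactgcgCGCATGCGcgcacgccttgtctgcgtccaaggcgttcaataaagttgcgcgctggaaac
Sdhd (chr9:50603850-50603909, minus strand): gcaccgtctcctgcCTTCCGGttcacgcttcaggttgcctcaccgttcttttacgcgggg
Uqcr11 (chr10:80406831-80406980, minus strand): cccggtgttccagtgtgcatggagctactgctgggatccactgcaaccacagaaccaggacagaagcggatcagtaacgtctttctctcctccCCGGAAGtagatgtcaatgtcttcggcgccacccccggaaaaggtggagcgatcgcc
Cox6a1 (chr5:115348982-115349129, minus strand): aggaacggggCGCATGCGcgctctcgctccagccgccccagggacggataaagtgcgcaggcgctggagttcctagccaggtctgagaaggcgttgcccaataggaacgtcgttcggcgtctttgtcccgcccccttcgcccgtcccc
Atp5e (chr2:174464106-174464255, minus strand): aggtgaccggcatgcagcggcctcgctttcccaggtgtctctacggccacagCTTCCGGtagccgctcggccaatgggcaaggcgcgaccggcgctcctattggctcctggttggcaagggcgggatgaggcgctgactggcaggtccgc

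The library totals were 10156728 to 17774577 counts, and the targeted gene Smc3 was at 88.1 to 126 CPM (counts scaled to the normalized library size) in the Bcl6 tumors, at 89.7 to 111 CPM in 5 of the Smc3/Bcl6 tumors and at 27.9 CPM in Smc3/Bcl6 tumor 2, so that only tumor 2 lay under the Bcl6 range. These counts take in all exons, also those outside the deleted part. In tumor 2 Smc3 lay -1.89 log2 units from the mean of the other 8. After the correction for length and GC content described below this difference was -1.37. By RT-qPCR the study found reduced Smc3 mRNA in Smc3/Bcl6 tumors. Smc3/Bcl6 tumor 2 stood apart from the other libraries, with a normalization factor of 0.693 against 0.964 to 1.10 in the other 8. The comparisons of genotypes are given with and without it, a choice fixed beforehand with earlier results of these data known. Marker genes of other cells were detected in every library. Summed over each list, T cell markers held 1715 CPM in this tumor and 26.2 to 1643 CPM in the 7 tumors other than numbers 2 and 4 of Smc3/Bcl6. Plasma cell markers held 4842 CPM against 719 to 1997 CPM, macrophage markers 2129 against 128 to 1999 CPM, and B cell markers 4799 against 2537 to 8044 CPM. Stroma markers held 19.0 CPM in tumor 2, the lowest of the 9 tumors, against 49.6 to 172 CPM, and neutrophil markers 120.2 CPM, within the range of the 7. All 6 T cell, all 6 B cell and all 5 listed plasma cell and macrophage genes in the table were counted in every tumor, and their part in the results was not tested.

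The subunit genes together took 3.13% of all counts in Smc3/Bcl6 tumor 2 and 0.704% to 1.39% in the other 8 tumors. Their mean log2 CPM was 6.47, 6.41 and 6.24 in Bcl6 tumors 1 to 3, and 6.48, 8.32, 6.18, 5.67, 6.23 and 6.08 in Smc3/Bcl6 tumors 1 to 6. Smc3/Bcl6 tumor 2 was thus the highest and Smc3/Bcl6 tumor 4 the lowest, with the Bcl6 tumors between them. Tumor 2 lay 2.10 log2 units above the mean of the other 8, and tumor 4 lay -0.62 log2 units from the mean of the other 7, both more than the SD of 0.12 among the 3 Bcl6 tumors. In tumor 4 the summed erythroid markers held 11262 CPM against 38.1 to 3583 CPM in the 7 remaining tumors and 4097 CPM in tumor 2, and the summed stroma markers 329.6 CPM against 49.6 to 172 CPM. The B cell markers held 9978 CPM in tumor 4, the highest of the 9 tumors, against 2537 to 8044 CPM in the 7 remaining ones. Its T cell, plasma cell and macrophage markers, at 82.2, 1006 and 1657 CPM, lay within the range of these 7. The neutrophil markers held 705 CPM in tumor 4, within the 8.13 to 1731 CPM of the others. Of the markers in the table, the neutrophil gene Elane and the stroma gene Col3a1 were at 0 in at least 1 tumor. Their part in the low subunit levels was not tested.

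Complex by complex, tumor 2 stood above the mean of the other 8 by 2.20 log2 units for complex I, 1.21 for complex II, 2.22 for complex III, 2.28 for complex IV and 1.90 for complex V. Complex II had the smallest of these differences, a mean of 4 genes with Sdha at -0.19, Sdhc at 1.23, Sdhd at 1.79 and Sdhb at 1.99. Its genes were also longer, with a median of 2744.5 exon bases against 1119.5 to 2181 in the other complexes. Among the 5 other Smc3/Bcl6 tumors the SD of the complex means was 0.26 to 0.37 log2 units, against 0.092 to 0.21 among the Bcl6 tumors. Tumor 4 lay -0.51 log2 units from the mean of the other 7 for complex IV and -0.79 for complex III, with the remaining complexes between these values.

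**Figure D1:**
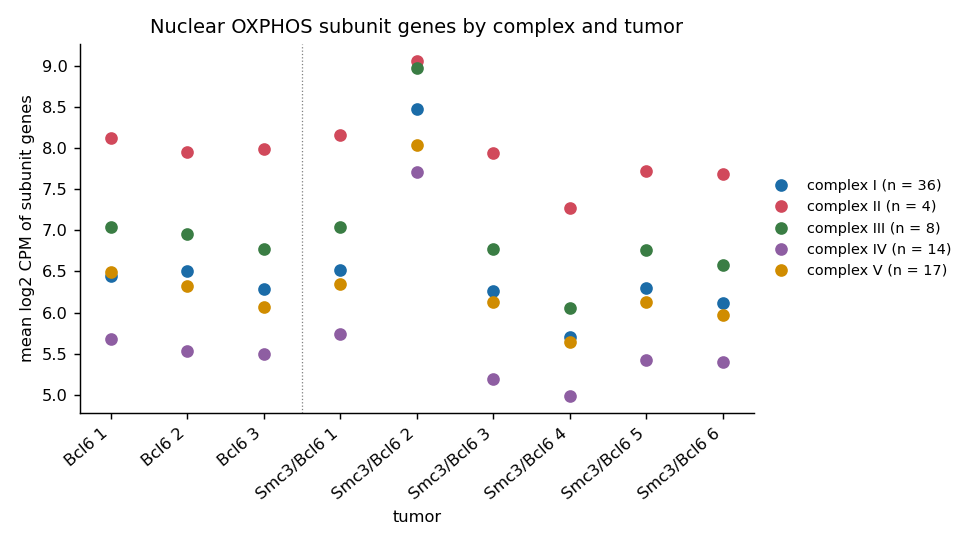
Mean log2 CPM of the subunit genes (vertical axis) in each of the 9 tumors (horizontal axis), 1 point per complex and tumor, with the number of genes per complex as n in the legend. All 5 complexes were highest in Smc3/Bcl6 tumor 2 and lowest in Smc3/Bcl6 tumor 4.

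Gene by gene, Smc3/Bcl6 tumor 2 held the highest level of the 9 tumors for 75 of the 79 genes, against 29.0% of all genes tested. It was more than 1 log2 unit above the mean of the other 8 tumors for 73 genes, against 23.0% of all genes tested, and more than 2 log2 units above it for 53, against 6.56%. The 4 genes not highest there were Ndufs1, Sdha, Cox6b2 and Atp5sl, and Ndufs1, Sdha and Atp5sl lay below the mean of the other 8. Smc3/Bcl6 tumor 4 held the lowest level for 69 of the 79 genes, against 21.4% of all genes tested. The 10 exceptions were Ndufv1, Ndufs1, Ndufs3, Cox7c, Cox6a2, Cox6b2, Atp5sl, Atp5s, Atp5l and Atp5g2. Of these, Ndufs3, Cox7c, Atp5l and Atp5g2 have near-identical pseudogene copies, so that their levels are uncertain.

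**Figure D2:**
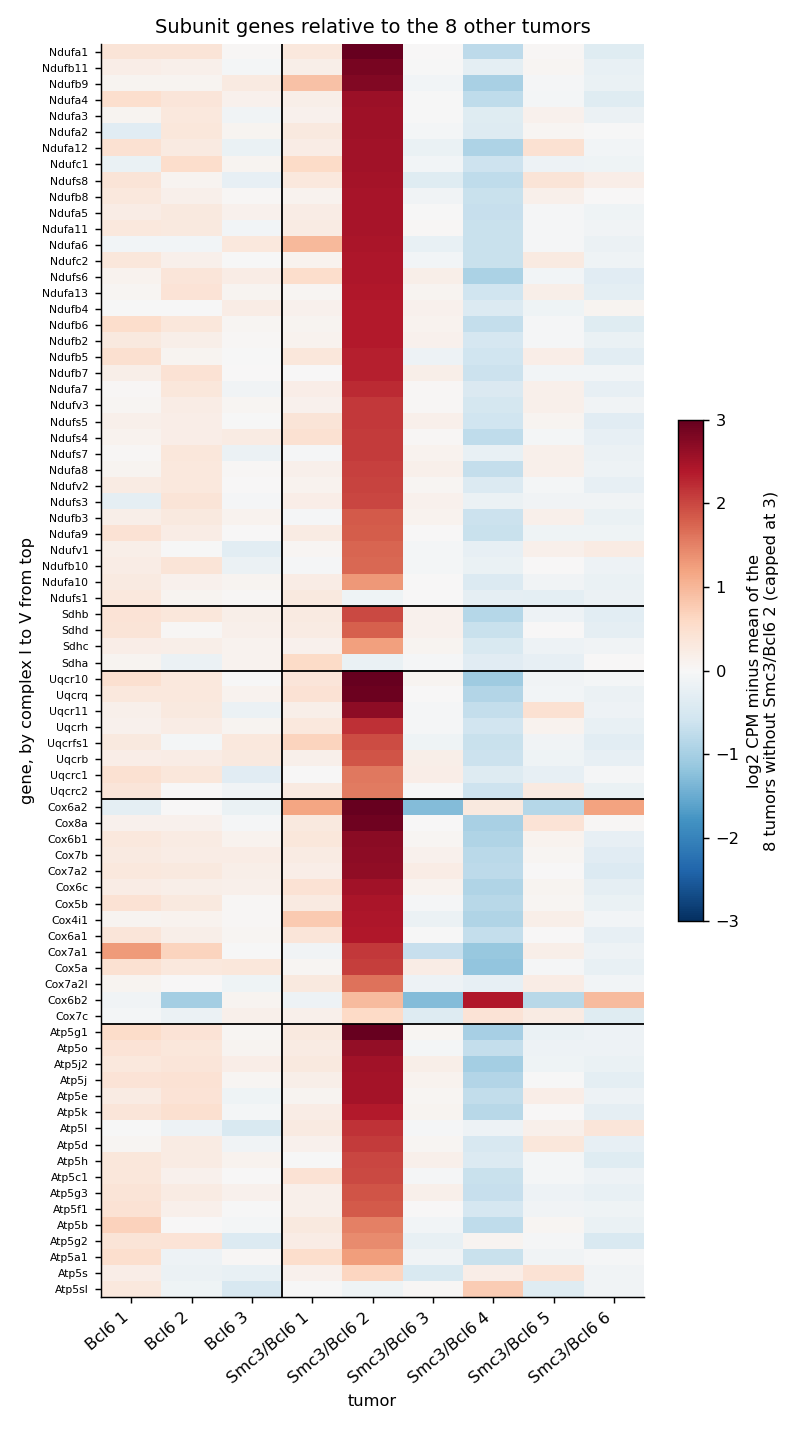
Log2 CPM of 78 of the 79 subunit genes, each minus its mean over the 8 tumors other than Smc3/Bcl6 tumor 2, by tumor (columns) and by complex I to V (row blocks from the top, each sorted by the value in tumor 2), with the color scale capped at 3 log2 units. The column of tumor 2 is red for all genes except Ndufs1, Sdha and Atp5sl, and that of tumor 4 holds the lowest value of most genes.

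The genotypes were compared to ask whether loss of 1 Smc3 allele went with a different level of these genes in the tumors. With all 9 tumors, 0 of the 79 genes were higher in Smc3/Bcl6 at an unadjusted p below 0.1 and a log2 fold change above 0.56, against 1.28% of all genes tested, and 0 were lower, against 0.868%. None had an adjusted p below 0.05 by edgeR, DESeq2 or limma, and by edgeR and limma 0 of all 14057 genes tested did. For the subunit genes edgeR gave 0 with an unadjusted p below 0.05, against 0.562% of all genes. The fitted log2 fold change was above 0 for 76 of the 79, against 57.4% of all genes tested, and below 0 for 3, against 42.6%, with a median of 0.51 against 0.061 for all genes. With scaling by library size alone 65 were above 0, against 44.4%. The median SE of a subunit gene was 0.64. The mean of the log2 CPM values differed by 0.12 between genotypes, which was within the SD of 0.93 among the 6 Smc3/Bcl6 tumors.

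Without Smc3/Bcl6 tumor 2 the direction turned. The fitted log2 fold change was then below 0 for 69 of the 79 genes, against 46.8% of all genes tested, with a median of -0.23 against 0.028 for all genes and a median SE of 0.23. No gene was past the thresholds upward, against 2.43% of all genes, and 1, Cox7a1, was past them downward, against 1.39%. Cox7a1 and Ndufa4 had an unadjusted p below 0.05, which 1.82% of all genes had. The smallest adjusted p of a subunit gene by edgeR was 0.985, as over all genes tested. The mean log2 CPM was 6.13 ± 0.29 (SD, n = 5) in Smc3/Bcl6 and 6.37 ± 0.12 (SD, n = 3) in Bcl6. With tumor 4 left out as well, an alternative chosen after the data were seen, the median was -0.12 and 61 genes were below 0, against 49.7% of all genes tested. A limma fit over all 9 tumors that gives each library its own weight, and gave tumor 2 a weight of 0.125, had a median of -0.21. When replicate numbers 1 to 3 entered as a block, tumor 2 included, 0 genes were higher, against 0.337% of all genes tested, and 0 lower, against 1.90%, while 77 lay above 0, against 43.8%, and 2 below it, against 56.2%. With the block over replicates 1 and 3 alone, which leaves tumor 2 out and was added after the data were seen, the median was -0.017. In that fit 34 genes lay above 0, against 47.6% of all genes tested, and 45 below it, against 52.4%, the median of complex I was 0.0029, and Cox7a1 was not past the thresholds.

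By complex, the median log2 fold change with all 9 tumors and then without tumor 2 was 0.54 and -0.22 for complex I. It was 0.13 and -0.24 for complex II, and 0.42 and -0.24 for complex III. It was 0.62 and -0.24 for complex IV, and 0.38 and -0.29 for complex V. All 5 medians were above 0 with the 9 tumors and below 0 without tumor 2, and under 2 other scalings of all 9 tumors, by library size alone or with a length and GC offset, that of complex II was also below 0. No gene of any complex had groups that did not overlap over the 9 tumors, against 0.285% of all genes tested upward and 0.199% downward. Without tumor 2, 2 genes had every Smc3/Bcl6 tumor below every Bcl6 tumor, Uqcrb of complex III and Cox5a of complex IV, against 0.726% of all genes, and 0 had every one above, against 0.697%.

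**Figure D3:**
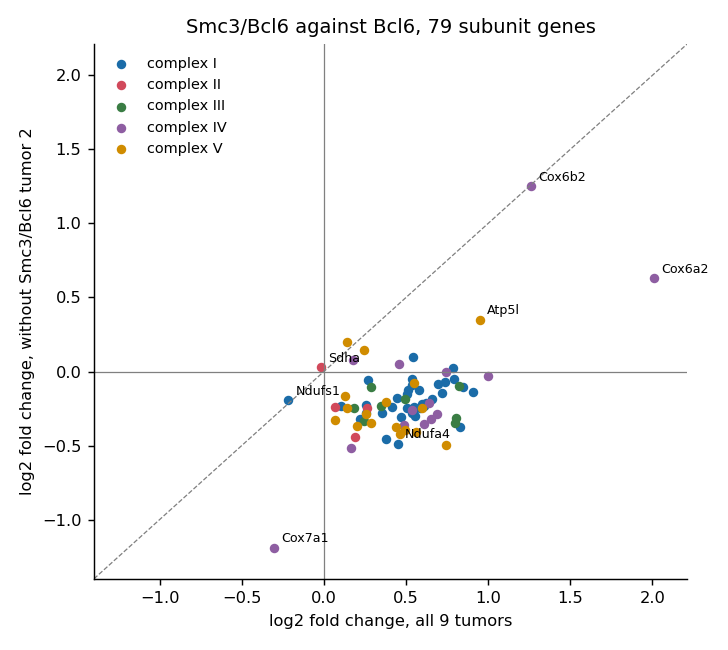
Fitted log2 fold change of Smc3/Bcl6 over Bcl6 for the 79 subunit genes with all 9 tumors (horizontal axis) and without Smc3/Bcl6 tumor 2 (vertical axis), colored by complex, with the dashed line where both are equal. With 9 tumors 76 genes lie right of 0, and without tumor 2 only 10 lie above 0. No gene passed an adjusted p of 0.05 in either comparison, among these or among all genes tested.

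In complex I, the 7 genes for core subunits of the arm that takes electrons from NADH had log2 fold changes of -0.22 to 0.74 with all tumors and -0.28 to 0.096 without tumor 2. Ndufs1, the largest iron-sulfur subunit, was at 190.3, 163 and 157 CPM in the 3 Bcl6 tumors and at 189, 141, 156, 128, 126 and 137 CPM in the Smc3/Bcl6 tumors 1 to 6. The groups overlapped and tumor 2 lay within the range of the other 5 in its group, so that the log2 fold change of Ndufs1 was -0.22 (SE 0.21, unadjusted p 0.331 by edgeR) with and -0.19 (SE 0.16, unadjusted p 0.265) without that tumor. Over the exons of every annotated transcript, Ndufs1 has the longest sequence of the 79 genes, 8086 bases. Its longest coding transcript, 2661 bases, is not the longest of the 79, as that of Atp5g1 has 4715. Ndufv1, which binds NADH through its flavin, was at 146, 129 and 103 CPM in the 3 Bcl6 tumors and at 135, 437, 123, 109, 145 and 152 CPM in the Smc3/Bcl6 tumors 1 to 6. Tumor 2 was the only high library, and the other 5 Smc3/Bcl6 tumors lay in the Bcl6 range or just above it. The log2 fold change of Ndufv1 was 0.54 (SE 0.46, unadjusted p 0.263 by edgeR), and 0.096 (SE 0.16, unadjusted p 0.561) without tumor 2. Ndufs8, an iron-sulfur subunit, was at 225, 181 and 145 CPM in the 3 Bcl6 tumors and at 212, 972, 132, 101, 222 and 195 CPM in the Smc3/Bcl6 tumors 1 to 6, and its log2 fold change moved from 0.74 to -0.069. For Ndufs7, another iron-sulfur subunit, it moved from 0.54 to -0.094. The iron-sulfur subunit Ndufv2 moved from 0.35 to -0.28 and the core subunit Ndufs3 from 0.53 to -0.053.

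The other 29 genes grouped with complex I, mostly accessory subunits that surround the core, were all highest in tumor 2 and all lowest in tumor 4. Their log2 fold changes were 0.10 to 0.91 with all tumors, 29 above 0, and -0.49 to 0.026 without tumor 2, 28 below 0. Ndufa4 carries a complex I symbol but is known as a subunit of complex IV. It was at 227, 206 and 177 CPM in the 3 Bcl6 tumors and at 182, 951, 159, 95.1, 154 and 126 CPM in the Smc3/Bcl6 tumors 1 to 6, so that without tumor 2 only tumor 1 of Smc3/Bcl6 lay in the Bcl6 range. Its log2 fold change was 0.45 (SE 0.72, unadjusted p 0.544 by edgeR), and -0.49 (SE 0.21, unadjusted p 0.047) without tumor 2, an effect under the fold threshold with an adjusted p of 0.985. Ndufb6, an accessory subunit of the membrane arm, was at 59.7, 52.4 and 42.8 CPM in the 3 Bcl6 tumors and at 44.1, 217, 44.3, 25.2, 40.7 and 32.2 CPM in the Smc3/Bcl6 tumors 1 to 6. Smc3/Bcl6 tumors 1 and 3 lay within the Bcl6 range and tumors 4 to 6 under it, and the log2 fold change without tumor 2 was -0.45 (SE 0.21, unadjusted p 0.0656), against 0.38 with it. Ndufb11, a membrane-arm subunit whose gene is on the X chromosome, was at 73.0, 71.1 and 61.0 CPM in the 3 Bcl6 tumors and at 72.1, 461, 63.3, 51.6, 66.1 and 54.8 CPM in the Smc3/Bcl6 tumors 1 to 6. It had the largest log2 fold change of complex I with all tumors, 0.91 (SE 0.76, unadjusted p 0.263 by edgeR), and -0.14 without tumor 2. Ndufa1, with the shortest sequence of the 79 genes over the exons of every annotated transcript, 419 bases, was 3.05 log2 units above the mean of the other 8 in tumor 2. This was the highest value of complex I.

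Complex II links the tricarboxylic acid cycle to the chain, and its 4 genes differed among themselves in tumor 2. Sdha, the flavin subunit that oxidizes succinate, was at 578, 486 and 588 CPM in the 3 Bcl6 tumors and at 809, 479, 537, 433, 459 and 551 CPM in the Smc3/Bcl6 tumors 1 to 6. Tumor 2 was below all 3 Bcl6 tumors and Smc3/Bcl6 tumor 1 was the highest, and the log2 fold change of Sdha was -0.016 (SE 0.27, unadjusted p 0.955 by edgeR), and 0.027 (SE 0.23, unadjusted p 0.908) without tumor 2. Its direction differed by DESeq2, limma, the tissue label, the length and GC offset and the replicate block, at values near 0. Sdhb, the iron-sulfur subunit that takes the electrons from Sdha, was at 363, 344 and 309 CPM in the 3 Bcl6 tumors and at 325, 1080.2, 299, 149.5, 244 and 217 CPM in the Smc3/Bcl6 tumors 1 to 6. Tumor 2 was far above the Bcl6 tumors, tumors 3 to 6 were under all 3 of them, and its log2 fold change was 0.19 (SE 0.58, unadjusted p 0.75 by edgeR), and -0.44 (SE 0.24, unadjusted p 0.104) without tumor 2. The 2 membrane anchors differed in size, with Sdhd 1.79 and Sdhc 1.23 log2 units above the other tumors in tumor 2. All 4 genes were lowest in tumor 4.

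All 8 complex III genes were highest in tumor 2 and lowest in tumor 4. Uqcrfs1, the Rieske iron-sulfur protein, was at 224, 177 and 229.6 CPM in the 3 Bcl6 tumors and at 291, 716, 167, 115, 169 and 147 CPM in the Smc3/Bcl6 tumors 1 to 6. Smc3/Bcl6 tumors 1 and 2 were above the Bcl6 range and tumors 3 to 6 below it, and the log2 fold change was 0.35 (SE 0.57, unadjusted p 0.55 by edgeR), and -0.23 without tumor 2. For the core protein Uqcrc1 the log2 fold change was 0.18 with all tumors and -0.25 without tumor 2. The excess in tumor 2 was 2.98 log2 units for Uqcr10, 2.94 for Uqcrq and 2.69 for Uqcr11, which carries the GABP match shown above. Uqcrb, a small subunit near the ubiquinone site, was at 53.5, 54.1 and 56.7 CPM in the 3 Bcl6 tumors and at 51.5, 173, 52.8, 29.7, 42.7 and 39.1 CPM in the Smc3/Bcl6 tumors 1 to 6. Its 5 Smc3/Bcl6 tumors other than tumor 2 were all under the Bcl6 tumors, and the log2 fold change was 0.24 (SE 0.53, unadjusted p 0.656 by edgeR), and -0.33 (SE 0.20, unadjusted p 0.129) without tumor 2.

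In complex IV, whose catalytic core is encoded by mitochondrial DNA, the 11 genes that are not tissue-restricted isoforms had log2 fold changes of 0.16 to 1.00 with all tumors and -0.52 to 0.080 without tumor 2. Cox8a, a small subunit found in most tissues, was at 185, 183 and 166 CPM in the 3 Bcl6 tumors and at 207, 1273, 170.2, 85.7, 225 and 174 CPM in the Smc3/Bcl6 tumors 1 to 6. Smc3/Bcl6 tumors 1 and 5 were also above the Bcl6 range and tumor 4 under it, and its log2 fold change was 1.00 (SE 0.80, unadjusted p 0.238 by edgeR), and -0.033 without tumor 2. Cox5a, which binds next to the core, was at 143, 129 and 132 CPM in the 3 Bcl6 tumors and at 109, 439.5, 122, 45.8, 102 and 88.6 CPM in the Smc3/Bcl6 tumors 1 to 6. Without tumor 2 the groups did not overlap, and its log2 fold change was -0.52 (SE 0.28, unadjusted p 0.099), against 0.16 with all tumors. Its zinc-binding partner Cox5b had 0.49 and -0.36, and Cox4i1, the largest nuclear subunit, 0.74 and -0.0063. Cox7c, another small subunit, was at 11.4, 10.6 and 13.3 CPM in the 3 Bcl6 tumors and at 13.3, 18.2, 9.14, 16.0, 14.1 and 9.33 CPM in the Smc3/Bcl6 tumors 1 to 6, and tumor 4 was not its lowest. Near-identical copies in 4 pseudogenes cover 32.9% of its transcript, so that these values are uncertain. Cox7a2l, known as a factor of respiratory supercomplexes, had its second highest level in Smc3/Bcl6 tumor 1, 53.4 CPM, against 134 CPM in tumor 2.

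The isoforms of complex IV restricted to certain tissues were low in the 8 tumors other than tumor 2, at 0.266 to 7.19 CPM. They gave the extreme fold changes. Cox6a2, the heart and muscle form of subunit 6a, was at 2.03, 2.54 and 2.17 CPM in the 3 Bcl6 tumors and at 5.97, 37.5, 0.940, 3.13, 1.34 and 6.00 CPM in the Smc3/Bcl6 tumors 1 to 6. Tumor 2 was highest, the other Smc3/Bcl6 tumors lay on both sides of the Bcl6 range, and the log2 fold change of Cox6a2 was 2.01 (SE 1.14, unadjusted p 0.109 by edgeR), and 0.63 (SE 0.66, unadjusted p 0.367) without tumor 2. It was the smallest p of the 79 genes with all tumors. Of its exon bases 10.3% are shared with Itgad on the opposite strand. Itgad was at 9.42 CPM in tumor 2 and 201 CPM in tumor 4. Whether the counting used strand is not given in the sources used here. The common counterpart of Cox6a2, Cox6a1, was at 284, 249 and 228 CPM in the 3 Bcl6 tumors and at 285, 1158, 219.7, 134, 223 and 186 CPM in the Smc3/Bcl6 tumors 1 to 6, with a log2 fold change of 0.54 and -0.26 without tumor 2. Cox7a1, the muscle form of subunit 7a, was at 2.03, 1.30 and 0.756 CPM in the 3 Bcl6 tumors and at 0.694, 3.81, 0.418, 0.266, 0.869 and 0.666 CPM in the Smc3/Bcl6 tumors 1 to 6. These levels rest on few reads, and without tumor 2 only Smc3/Bcl6 tumor 5 lay in the Bcl6 range. Its log2 fold change was -0.30 (SE 0.83, unadjusted p 0.72 by edgeR), and -1.19 (SE 0.52, unadjusted p 0.0498) without tumor 2, where its adjusted p was 0.985. The common form Cox7a2 was at 134, 131 and 120.0 CPM in the 3 Bcl6 tumors and at 122, 678, 124, 62.5, 108 and 80.4 CPM in the Smc3/Bcl6 tumors 1 to 6. Cox6b2, the testis form of subunit 6b, was at 1.15, 0.540 and 1.32 CPM in the 3 Bcl6 tumors and at 1.11, 2.54, 0.418, 7.19, 0.632 and 2.53 CPM in the Smc3/Bcl6 tumors 1 to 6, highest in tumor 4, with a log2 fold change of 1.26 (SE 0.91, unadjusted p 0.195 by edgeR), and 1.25 without tumor 2. It was 0.49 without tumor 4, 0.16 with the replicate block and -0.19 with the block and the length and GC offset.

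**Figure D4:**
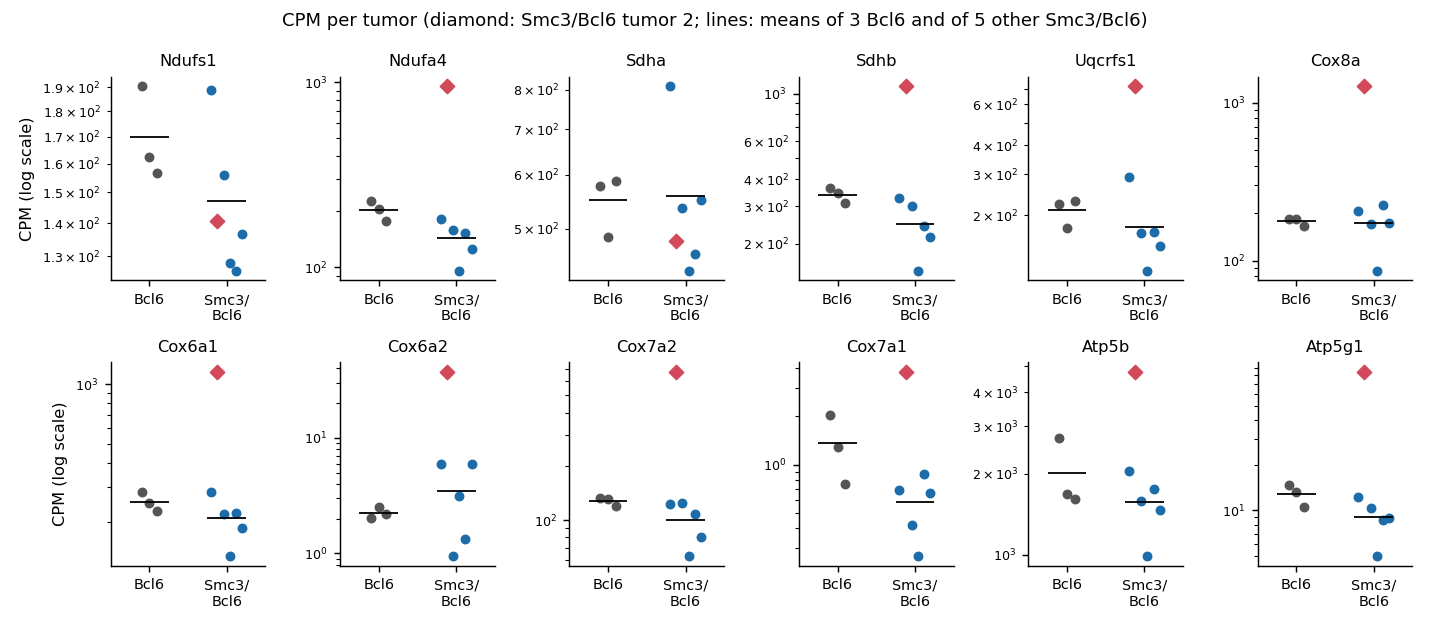
CPM on a log axis in each tumor for 12 subunit genes, with Bcl6 tumors in grey, Smc3/Bcl6 tumors in blue and Smc3/Bcl6 tumor 2 as a red diamond, and lines at the means of the 3 Bcl6 and of the 5 other Smc3/Bcl6 tumors. The diamond lies above every other point except for Ndufs1 and Sdha.

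In complex V, all 17 genes had a log2 fold change above 0 with all tumors and 14 had one below 0 without tumor 2. The catalytic subunit Atp5b had the highest level per kb of annotated exon of the 79 genes, 409 CPM per kb over the 8 tumors other than tumor 2, against a median of 63.7 CPM per kb. It was at 2719, 1677 and 1614 CPM in the 3 Bcl6 tumors and at 2053, 4768, 1591, 987, 1753 and 1468 CPM in the Smc3/Bcl6 tumors 1 to 6. Bcl6 tumor 1 was the second highest and tumor 4 the lowest, and its log2 fold change was 0.070 (SE 0.49, unadjusted p 0.888 by edgeR), and -0.33 (SE 0.29, unadjusted p 0.28) without tumor 2. Its partner Atp5a1 had 0.13 and -0.17. For the 5 genes of the catalytic head and central stalk (Atp5a1, Atp5b, Atp5c1, Atp5d and Atp5e) the range was 0.070 to 0.60 with all tumors and -0.33 to -0.076 without tumor 2.

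The c subunit of the proton-driven ring is encoded by 3 nuclear genes for the same mature protein. Atp5g1 was at 14.8, 13.2 and 10.5 CPM in the 3 Bcl6 tumors and at 12.2, 84.5, 10.3, 4.92, 8.69 and 8.93 CPM in the Smc3/Bcl6 tumors 1 to 6, and tumor 2 was 3.06 log2 units above the other 8, the second largest excess of the 79 genes after the 3.81 of Cox6a2. Atp5g3 was at 408, 369 and 341 CPM in the 3 Bcl6 tumors and at 344, 1147, 347, 192, 281 and 265 CPM in the Smc3/Bcl6 tumors 1 to 6, with an excess of 1.88. Atp5g2 was at 1.41, 1.46 and 0.756 CPM in the 3 Bcl6 tumors and at 1.25, 3.07, 0.888, 1.13, 1.03 and 0.733 CPM in the Smc3/Bcl6 tumors 1 to 6, with an excess of 1.43, and it was close to the detection limit. Per kb of all annotated exons, which counts exons of every transcript of a gene, Atp5g3 had the highest level over the 8 tumors. It was at 146 CPM per kb, against 2.13 for Atp5g1 and 0.646 for Atp5g2. Near-identical copies in other genes cover 18.3% of the transcript of Atp5g1 and 16.9% of that of Atp5g2. None was found for Atp5g3, so that this order and the levels of Atp5g1 and Atp5g2 are uncertain. Without tumor 2 the log2 fold changes were -0.49 (SE 0.31, unadjusted p 0.143) for Atp5g1, -0.37 (SE 0.21, unadjusted p 0.11) for Atp5g3 and -0.25 (SE 0.41, unadjusted p 0.555) for Atp5g2, against 0.74, 0.20 and 0.14 with all 9 tumors.

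Among the 7 genes of the peripheral stalk and the other membrane subunits, Atp5o, which joins the stalk to the head, was at 140.1, 134 and 112 CPM in the 3 Bcl6 tumors and at 126, 659, 101, 64.0, 94.9 and 94.4 CPM in the Smc3/Bcl6 tumors 1 to 6. Only Smc3/Bcl6 tumors 1 and 2 were not under the Bcl6 range, and the log2 fold change of Atp5o was 0.56 with all tumors and -0.41 (SE 0.20, unadjusted p 0.0774) without tumor 2. The stalk subunit Atp5h had 0.29 and -0.35 (SE 0.16, unadjusted p 0.0657). Atp5l, subunit g of the membrane part, was at 3.79, 3.40 and 2.74 CPM in the 3 Bcl6 tumors and at 4.58, 17.7, 3.71, 3.39, 4.26 and 4.93 CPM in the Smc3/Bcl6 tumors 1 to 6, and had 0.95 (SE 0.61, unadjusted p 0.152 by edgeR), and 0.35 without tumor 2. Its transcript shares 86.8% of its bases, at 95% identity or more, with 11 other genes, so that its value is uncertain. Atp5s and Atp5sl carry older ATP synthase symbols without being structural subunits, and were not lowest in tumor 4. Atp5sl was at 67.0, 48.8 and 38.2 CPM in the 3 Bcl6 tumors and at 53.2, 48.9, 54.7, 91.3, 41.5 and 49.9 CPM in the Smc3/Bcl6 tumors 1 to 6, and was highest in tumor 4, with log2 fold changes of 0.14 with all tumors and 0.20 without tumor 2. Atp5s differed by 0.64 log2 units between tumor 2 and the other 8.

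The subunit genes share a short length. Their median exon length, over the exons of every annotated transcript, was 1675 bases, against 4091 bases over all genes tested. Their median GC content of 50.2% was close to the 49.4% of all genes. In Smc3/Bcl6 tumor 2 short genes as a whole were high, with a median of 1.05 log2 units above the other 8 tumors in the shortest of 5 equal length groups and -1.16 in the longest. The Spearman correlation of this difference with exon length was -0.47 over all genes with a length and -0.41 over the 79, as a description across genes that share the same library. Within the shortest group, which held 50 of the 79 genes, the subunit genes had a median of 2.43, and the 18 in the next group had 1.94 against 0.47 for all genes there. After each tumor was corrected for length and GC content, the mean of the 79 genes in tumor 2 was 1.42 log2 units above the other 8. It was 2.10 before the correction, and for complex II it was 0.69 after it. The length used takes in every annotated transcript and can far exceed a single one, as for Atp5l with 6443 against 544 bases. For such genes the correction can raise the difference, as from 2.18 to 2.89 for Atp5l. How far this affects the mean was not tested. With this correction the median log2 fold change between genotypes was 0.22 with all tumors and -0.18 without tumor 2. Tumor 4 differed from the other 7 by -0.48 log2 units after the correction, against -0.62 before it. Why tumors 2 and 4 differ was not tested.

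**Figure D5:**
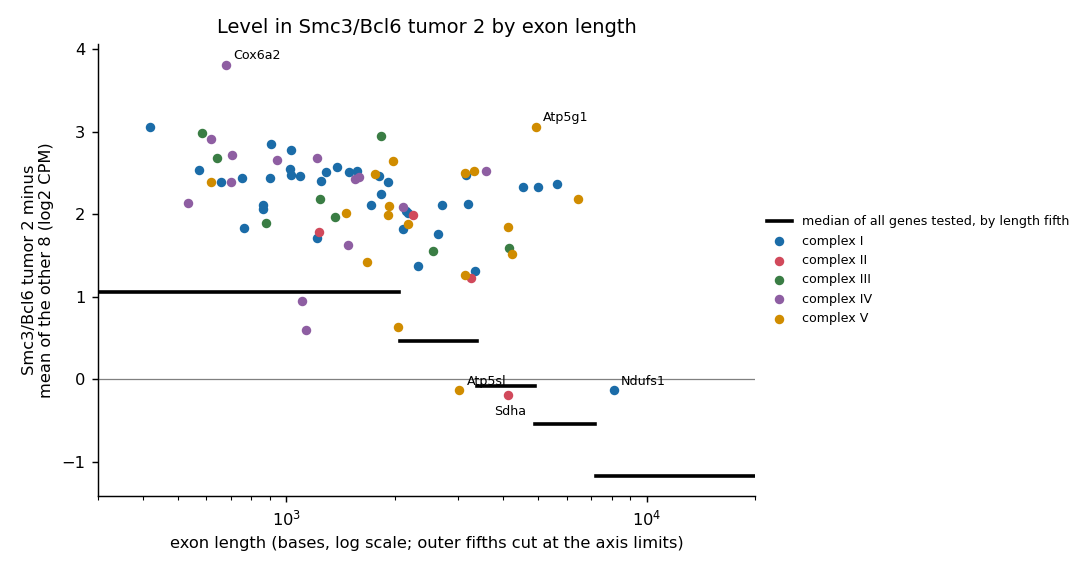
Difference of Smc3/Bcl6 tumor 2 from the mean of the other 8 tumors in log2 CPM (vertical axis) against exon length in bases on a log axis (horizontal axis), for the 79 subunit genes as points colored by complex, with black lines for the median of all genes tested in each of 5 equal length groups. The lines fall from 1.05 to -1.16, and all points except those of Ndufs1, Sdha and Atp5sl lie above 0.

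The 13 subunits encoded by mitochondrial DNA, which complete complexes I, III, IV and V, were counted in the same table. Of the 8 that passed the filter on low counts, tumor 2 was highest for 3, against 29.0% of all genes tested. Their median log2 fold change was -0.23 with all tumors, with 2 of 8 above 0, against 57.4% of all genes. Without tumor 2 it was -0.47, with 8 of 8 below 0, against 46.8%. mt-Nd2 of complex I was at 505, 657 and 1189 CPM in the 3 Bcl6 tumors and at 525, 1490.4, 410.2, 579, 549 and 513 CPM in the Smc3/Bcl6 tumors 1 to 6. The highest libraries were Smc3/Bcl6 tumor 2 and Bcl6 tumor 3, and the log2 fold change of mt-Nd2 without tumor 2 was -0.61 (SE 0.29, unadjusted p 0.0701), past the thresholds, with an adjusted p of 0.985. With all tumors it was -0.21 (SE 0.46, unadjusted p 0.657 by edgeR), with the replicate block -0.11, and without Bcl6 tumor 3 0.22. mt-Nd6 and mt-Nd5, which had the smallest p with all tumors, had log2 fold changes of -0.39 and -0.34, and -0.38 and -0.28 without tumor 2.

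Genes around the complexes were taken from lists. Of 46 assembly factors listed 39 were tested, with 0 past the thresholds in either direction by either set of tumors. Of all genes tested 1.28% were past them upward and 0.868% downward with all tumors, and 2.43% and 1.39% without tumor 2. The median log2 fold change of the assembly factors was 0.19 with all tumors and -0.10 without tumor 2. The complex II factor Sdhaf1 had 0.52 and 0.26, and the complex IV factor Cox14 had 0.73 and 0.072. All 13 regulators were tested, with 0 past the thresholds and medians of -0.048 and 0.039. Tumor 2 was highest for 3 of them, against 29.0% of all genes tested, and more often below than above the other 8. The regulators are long genes, with a median exon length of 5687 bases. Their median in tumor 2 was -0.37 log2 units from the other 8, and -0.043 after the correction for length and GC content. Gabpa, the DNA-binding part of GABP, was at 117, 77.2 and 84.5 CPM in the 3 Bcl6 tumors and at 106, 53.7, 74.8, 84.7, 65.7 and 78.6 CPM in the Smc3/Bcl6 tumors 1 to 6, lowest in tumor 2, with a log2 fold change of -0.27, and -0.17 without tumor 2. Tfb1m, a mitochondrial rRNA methyltransferase, had 0.41 and 0.28.

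Among the 12 tricarboxylic acid cycle genes 0 were past the thresholds, for which the shares of all genes are given above. Their medians were 0.030 with all tumors and -0.19 without tumor 2, and tumor 2 was highest for 8, against 29.0% of all genes tested. Idh3g, a subunit of isocitrate dehydrogenase, had 0.47 and -0.056, and citrate synthase (Cs) -0.19 and -0.23. Of 5 further subunits and carriers that the symbol pattern leaves out, tumor 2 was highest for all 5, against the same 29.0%. With all tumors 0 of these 5 were past the thresholds, against 1.28% of all genes upward and 0.868% downward. Cytochrome c (Cycs) was at 8.20, 7.56 and 6.24 CPM in the 3 Bcl6 tumors and at 5.27, 11.4, 5.54, 4.79, 3.95 and 3.67 CPM in the Smc3/Bcl6 tumors 1 to 6. Without tumor 2 it had a log2 fold change of -0.64 (SE 0.27, unadjusted p 0.0431), past the thresholds, with an adjusted p of 0.985. All 5 remaining Smc3/Bcl6 tumors lay under the Bcl6 tumors, as for 0.726% of all genes. With all 9 tumors the log2 fold change of Cycs was -0.35 (SE 0.42, unadjusted p 0.431 by edgeR), and it was -0.10 with the replicate block, neither past the thresholds. The search for copies described below did not cover Cycs, so that its level is uncertain. The ATP synthase inhibitor Atpif1 had 0.52 and 0.042, and the small ATP synthase subunit Usmg5 0.85 and -0.19.

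Genes for ribosomal proteins, which are also short, were set beside the subunit genes. Tumor 2 was highest for 75 of the 76 mitochondrial ribosomal genes tested and for 77 of the 82 cytosolic ones, against 29.0% of all genes tested. The median log2 fold change of the mitochondrial ribosomal genes was 0.33 with all tumors and -0.19 without tumor 2. Tumor 4 was lowest for 61 of these 76, against 21.4% of all genes. Of the 76, 1 gene was past the thresholds, downward and without tumor 2, against 1.39% of all genes. For the cytosolic ribosomal genes the median was 0.75 and 0.18, and tumor 4 was lowest for 37 of 82. Of the 82, 1 gene was past the thresholds, upward and with all tumors, against 1.28% of all genes. Without tumor 2 the medians of the subunit genes and of the cytosolic ribosomal genes thus had opposite signs. This difference between lists was not tested.

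Copies limit single values. They were sought for the 79 subunit genes only, not for the related genes. Of the 79 genes 35 have at least 1 other gene with 95% identity or more over at least 100 bases of their transcript. In 8 of them, Atp5o, Atp5l, Ndufs3, Atp5h, Atp5f1, Ndufb11, Uqcrb and Atp5k, such copies cover 50% or more of the transcript, and since the treatment of reads with several matches is not given in the sources used here, the levels of these genes are uncertain. Copies that cover less of a transcript can affect levels too, as for Cox7c (32.9%), Atp5g1 (18.3%) and Atp5g2 (16.9%). Exon bases are shared with a gene on the opposite strand for 25 of the 79 genes and with one on the same strand for 5.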

How the data were processed

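The analysis used gene counts from 9 tumor libraries, 3 Bcl6 and 6 Smc3/Bcl6. The authors used STAR with mm10 and a Gencode annotation, then featureCounts, and the deposited values are raw counts. GENCODE M21 (GRCm38) held 97.9% of the gene identifiers and gave their positions and exon lengths. Genotype and replicate number came from the labels.

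The whole table was fitted with edgeR 4.0.16 in R 4.3.3 by its quasi-likelihood test after TMM scaling and removal of low counts within genotypes, and Benjamini-Hochberg adjustment covered every gene tested. Calls needed an unadjusted p below 0.1 with a log2 fold change beyond 0.56 in size, as in the study. Log2 CPM used a prior count of 2. Length and GC effects were removed by a lowess fit (span 0.3). Copies were sought with blastn 2.17.0. Promoters were searched for 7-letter motifs, after a first search with longer forms of the NRF1 and YY1 motifs that is not reported. DESeq2 1.42.0, limma 3.58.1, other scalings and filters, and each tumor left out were alternatives. The fits were tested on simulated data.

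The members and lists were chosen with earlier results of these data known. The genes named were the catalytic core, the c subunits, the isoform pairs, and those with the smallest p, the largest and smallest spread, the largest excess in Smc3/Bcl6 tumor 2 or the highest level per kb, and the 2 related genes of each list with the smallest p. Uqcrb, Atp5s, mt-Nd2, Cycs and single exceptions to a count were named after their values were seen. The single values of 1 gene are not reported here. The deviations of tumors with the same replicate number correlated at 0.443, 0.113 and 0.155, and the pairing comes only from the numbers in the labels.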

Additional observations from a re-analysis of the deposited data

Results flagged for a closer look

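Among the 6 Smc3/Bcl6 tumors, the gap between the most extreme tumor and its neighbour, divided by the whole range, was compared with Dixon's 95% critical value for 6 samples in 61 measures, and 37 exceeded it. For a measure chosen without regard to its values chance would pass about 1 in 20. Some of these genes were named for their large excess in tumor 2 or their large spread. Tumor 2 had also been singled out beforehand with earlier results of these data known, and all measures share the same 6 libraries. The 1 in 20 thus does not apply to them, and the number passing is a description. In 36 of the 37 the extreme tumor was Smc3/Bcl6 tumor 2 at the high end. The Bcl6 tumors, a group of 3, were not examined in this way.

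For the summed measures the value was 0.696 for the mean log2 CPM of all subunit genes, 0.758 for their percent of all counts, 0.705 for the mean of complex I, 0.66 for the mean of complex III, 0.721 for the mean of complex IV, 0.704 for the mean of complex V. Among genes of complex I it was 0.829 for Ndufs3, 0.842 for Ndufs7, 0.654 for Ndufs8, 0.758 for Ndufv1, 0.792 for Ndufv2, 0.718 for Ndufa4, 0.848 for Ndufb11, 0.738 for Ndufb6, 0.714 for Ndufa1. Among genes of complex III it was 0.705 for Uqcrc1, 0.649 for Uqcr10, 0.657 for Uqcrq, 0.674 for Uqcrb. Among genes of complex IV it was 0.665 for Cox5b, 0.649 for Cox6a1, 0.659 for Cox6b1, 0.711 for Cox7a2, 0.696 for Cox7b, 0.643 for Cox8a. Among genes of complex V it was 0.683 for Atp5g1, 0.644 for Atp5g2, 0.67 for Atp5g3, 0.777 for Atp5l, 0.767 for Atp5h, 0.71 for Atp5o. Among related genes outside the list it was 0.787 for Atpif1, 0.668 for Usmg5, 0.76 for Idh3g, 0.64 for Cycs, 0.732 for mt-Nd2. The 1 measure with another extreme tumor was Atp5sl, for which tumor 4 was highest, with 0.648. The cause of these values was not tested.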

How the results depend on the processing

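The counts past the thresholds were 0 higher and 0 lower in the main comparison, against 1.28% and 0.868% of all genes tested. The count with an adjusted p below 0.05 was 0 under all 20 planned and 4 added alternatives. In the main comparison it was also 0 over all genes tested. One gene higher, Cox6a2, was called by DESeq2 (1), without the filter on low counts (1) and without Smc3/Bcl6 tumor 3, 4 or 5, so that leaving out 1 tumor gave 0 to 1 higher. One gene lower, Cox7a1, was called by limma with quality weights (1), without Smc3/Bcl6 tumor 2, so that leaving out 1 tumor gave 0 to 1 lower, and in 3 added alternatives without that tumor, with a length and GC offset (1), by library size alone (1) or without tumor 4 as well (1). For the fits that called Cox6a2, the share of all genes called higher is not reported here, so that these single calls cannot be set against it. In the main comparison 180 of 14057 genes, or 1.28%, were called higher. Of all genes tested, limma with quality weights called 1002 of 14057 lower. Without tumor 2 edgeR called 194 of 13942 lower, 181 with the offset and 231 by library size alone. Without tumor 4 as well it called 169 of 13694. The median log2 fold change of the subunit genes was 0.51, and moved to 0.23 with library size alone, which shifted the median of all genes by -0.10, and to 0.22 with the length and GC offset. It turned to -0.21 with limma's quality weights, and was -0.23 to 0.63 with 1 tumor left out, below 0 only without Smc3/Bcl6 tumor 2. Without that tumor it was -0.18 with the length and GC offset, -0.26 with library size alone and -0.12 without tumor 4, all added after the data were seen. The filter, the tissue label, DESeq2 and its size factors, a stricter mean of 50 counts and an unadjusted p below 0.05 moved the median by less than the SD among Bcl6 tumors where they gave one. The cause of these changes was not tested.

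When replicate numbers 1 to 3 entered as a block, the counts stayed at 0 and the median was 0.60, with all genes shifted by -0.14, or 0.39 with the length and GC offset as well. Over replicates 1 and 3 alone, an added pairing without tumor 2, it was -0.017, with 34 genes above and 45 below 0. The block changed no call. Its direction differed from the main one as 0.078 for Sdha, and with the offset the values were 0.21 for Ndufs1, 0.13 for Sdha, -0.19 for Cox6b2, -0.10 for Atp5sl, 0.099 for Cs.

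By complex, limma with quality weights gave medians of -0.21 for complex I, -0.20 for complex II, -0.20 for complex III, -0.21 for complex IV, -0.25 for complex V. For complex II the median was -0.091 with library size alone and -0.0049 with the length and GC offset. With 1 tumor left out the medians ranged from -0.22 to 0.67 for complex I, -0.24 to 0.23 for complex II, -0.24 to 0.55 for complex III, -0.24 to 0.78 for complex IV, -0.29 to 0.50 for complex V.

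Among the genes for which these settings were run one by one, those whose direction turned are the following. With limma's quality weights it was -0.21 for Ndufs3, -0.16 for Ndufs7, -0.29 for Ndufv2, 0.063 for Sdha, -0.44 for Sdhb, -0.18 for Uqcrfs1, -0.19 for Uqcrc1, -0.019 for Cox4i1, -0.46 for Cox5a, -0.31 for Cox5b, -0.15 for Atp5b, -0.44 for Atp5g1, -0.45 for Atp5g2, -0.33 for Atp5g3, -0.13 for Ndufb11, -0.46 for Ndufa4, -0.43 for Ndufb6, -0.36 for Atp5h, -0.35 for Atp5o, -0.096 for Usmg5, -0.013 for Idh3g, -0.33 for Uqcrb, -0.22 for Cox6a1. With library size alone it was -0.073 for Sdhb, -0.035 for Uqcrc1, -0.10 for Cox5a, -0.054 for Atp5a1, -0.13 for Atp5b, -0.066 for Atp5g2, -0.043 for Atp5g3, -0.0057 for Uqcrb. With the length and GC offset it was 0.015 for Sdha, -0.087 for Sdhb, -0.031 for Cox5a, -0.082 for Atp5g2, -0.014 for Atp5g3. For Sdha it was 0.0070 by DESeq2, 0.0069 with its size factors and 0.028 with the tissue label. With 1 tumor left out the range was -0.053 to 0.68 for Ndufs3, -0.094 to 0.66 for Ndufs7, -0.069 to 0.88 for Ndufs8, -0.28 to 0.47 for Ndufv2, -0.16 to 0.032 for Sdha, -0.44 to 0.32 for Sdhb, -0.23 to 0.47 for Uqcrfs1, -0.25 to 0.28 for Uqcrc1, -0.0063 to 0.88 for Cox4i1, -0.52 to 0.31 for Cox5a, -0.36 to 0.63 for Cox5b, -0.17 to 0.26 for Atp5a1, -0.33 to 0.27 for Atp5b, -0.49 to 0.91 for Atp5g1, -0.25 to 0.29 for Atp5g2, -0.37 to 0.32 for Atp5g3, -0.033 to 1.15 for Cox8a, -0.14 to 1.06 for Ndufb11, -1.19 to 0.0086 for Cox7a1, -0.047 to 0.32 for Atp5sl, -0.49 to 0.60 for Ndufa4, -0.45 to 0.52 for Ndufb6, -0.35 to 0.42 for Atp5h, -0.41 to 0.70 for Atp5o, -0.19 to 0.99 for Usmg5, -0.056 to 0.57 for Idh3g, -0.68 to 0.13 for mt-Nd5, -0.33 to 0.35 for Uqcrb, -0.61 to 0.22 for mt-Nd2, -0.26 to 0.67 for Cox6a1.

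Depth limits the isoforms with few counts, such as Cox6b2, Cox7a1 and Atp5g2, at about 1 CPM in most tumors, and 3 Bcl6 tumors limit every comparison of genotypes.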
